A study of Sus scrofa with 48 samples.

Results

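The comparison described here is that of blood gene expression between low RFI pigs fed the HF diet and low RFI pigs fed the LF diet. Members were all pigs whose strain was given as RFIneg, which gave 24 of the 48 pigs of the series, 12 on each diet. All were purebred French Large White castrated males from the low line of a divergent selection on residual feed intake (RFI), and all were 132 days old at sampling. Both diets were offered ad libitum and supplied the same protein and energy. In the HF (high fat, high fiber) diet, part of the cereals of the LF (low fat, low fiber) diet gave way to wheat straw and to rapeseed and soya oil, so fat, fiber and starch differed together and their effects cannot be told apart. Whole blood was collected at slaughter in fed animals, and total RNA of each pig was labeled with Cy3 and hybridized to 1 porcine array. The 24 pigs of the high RFI line, 12 on each diet, are used only to set their diet differences beside those of the low RFI line.

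RFI is the part of feed intake that growth and maintenance do not account for, and low RFI pigs are the more efficient animals. Long-chain fatty acids act on gene expression through nuclear receptors of the PPAR family, whose targets include CPT1A, the enzyme that lets these fatty acids enter mitochondria. Starch acts through blood glucose and insulin, to which TXNIP, an inhibitor of glucose uptake, responds. Whole blood mixes red cell precursors, platelets, neutrophils, monocytes and lymphocytes, so a gene can differ because cells of a type are fewer or because they hold less of its RNA, and the arrays cannot tell these apart. In the study's cell counts, tested over both lines, numbers of neutrophils, monocytes and red cells did not differ between diets. Lymphocytes tended to be more numerous on HF, and hematocrit tended to be lower on HF in low RFI pigs.

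Levels are given as log2 intensity with the array median at 0, and a difference is HF minus LF on that scale. The median intensity of the retained probes was 7.16 to 13.9 times background in HF pigs and 5.91 to 14.8 times in LF pigs, and no probe was saturated. SLC4A1 (red cells), CXCR2 (neutrophils), CD14 (monocytes), CD3E (T cells), CD79B (B cells) and ITGA2B (platelets) were well above background on 24 of the 24 low RFI arrays, as whole blood requires. Each of 6 slides carried 2 low RFI pigs of either diet, so that slide and diet were balanced. Within diet groups, the first principal component of the gene values held 48.8% of the variance among low RFI pigs.

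No probe and no gene passed an adjusted P-value of 0.05 between diets in low RFI pigs. Of the 37113 retained probes, 493 (1.33%) had P-values under 0.05, while after adjustment no probe lay below 1.0 (rounded). An even spread of P-values would put 5% of probes there, and analysis of variance put 563 there. At the criterion of the study's methods, a P-value under 0.01 with a fold change (FC) above 1.1, 79 probes (0.213%) were retained, of which 43 (0.116%) were higher and 36 (0.097%) lower in HF pigs. Averaging the probes of each gene left 9900 named genes, of which 165 (1.67%) had P-values under 0.05, 104 (1.05%) with higher and 61 (0.616%) with lower levels in HF pigs. The criterion was met by 25 genes (0.253%), 13 (0.131%) with higher and 12 (0.121%) with lower levels, among which NTPCR is counted under 2 symbols. This balance of directions was not stable, with 41 higher and 13 lower genes without slide 1, 8 and 15 without slide 5, and 63 higher and 29 lower probes by analysis of variance. These shares are below what P-values spread evenly would give. The genes named below were picked by P-value or by list, not by size alone. They are descriptions, and none is a call after correction for multiple tests.

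**Figure D1:**
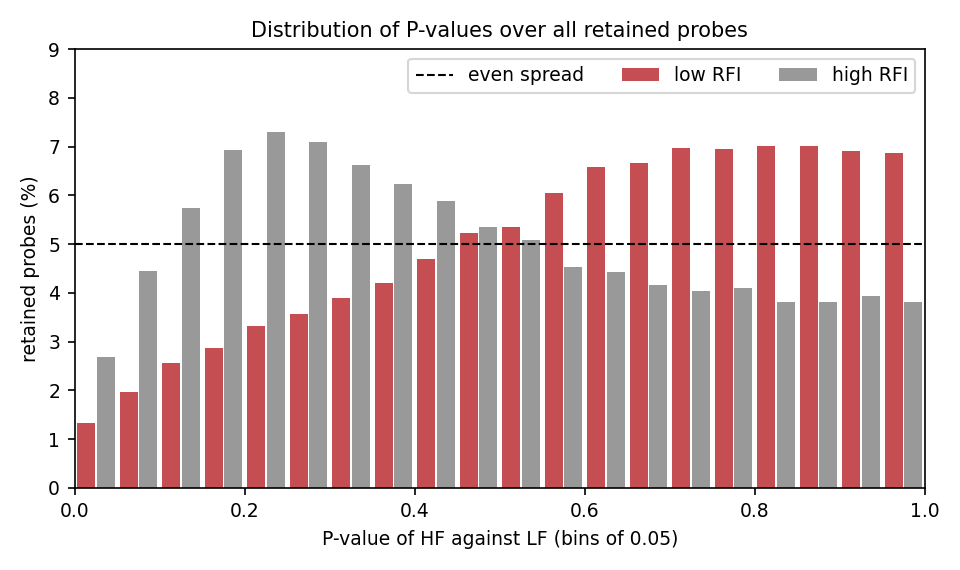
Percentage of the 37113 retained probes (vertical axis) in each P-value bin of 0.05 (horizontal axis) for HF against LF in low RFI (red) and high RFI (grey) pigs, with an even spread at 5% as the dashed line. The lowest bin holds 1.33% of probes in low RFI pigs and 2.69% in high RFI pigs.

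The data bounded the size of the diet differences in low RFI pigs. For 90.9% of genes the 95% interval of the difference lay between -0.5 and 0.5, and the median interval reached 0.19 to either side of its estimate. The median absolute difference was 0.051 over the 9900 genes. In high RFI pigs the same median was 0.076. A single gene, PCP4, a calmodulin-binding peptide best known from neurons, differed by more than 1 in low RFI pigs (-1.22 ± 0.56 SE, P = 0.0382), and it missed the criterion. PCP4 was named after its values were seen.

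Repeated oligonucleotides on the array gave a measure of technical precision. Among retained probes, 1665 pairs carried identical sequences, and the diet differences of the 2 spots of a pair differed by a median of 0.029, with a correlation of 0.86 over pairs. The 2 spots differed in sign for 319 pairs, and of the 10 pairs with a spot at the criterion 5 had both there. The 79 probes at the criterion carried 75 distinct sequences, and 34 of them had no gene name. Part of the unnamed ones repeated named genes. An unnamed probe with a difference of 0.78 was identical over 60 bases to a FOS probe, one at -0.76 shared 54 bases with an ENTPD1 probe, one at -0.36 was identical to an FGL2 probe, and 3 at 0.25, 0.29 and 0.30 shared 56 bases with an LTB probe. The reverse was seen for PRRC2A, where the probe at the criterion (-0.21) had an identical copy at 0.18.

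The largest positive difference among the 25 genes was that of FOS, an immediate-early transcription factor of the AP-1 complex. FOS ranged from -0.23 to 1.38 (median 0.70) in HF pigs and from -0.90 to 0.68 (median 0.14) in LF pigs. Groups overlapped, with 6 of 12 HF pigs above every LF pig. The difference was 0.63 ± 0.19 (SE), an FC of 1.54 (P = 0.00297), and it was positive on 5 of 6 slides. In the high RFI line FOS did not follow this direction (-0.07, P = 0.774), and the low RFI difference exceeded the high RFI one by 0.69 ± 0.31 (limma P = 0.0318 before adjustment, 0.879 after). The 5 FOS probes were not alike. Of these, 4 gave 0.69 to 0.76 and met the criterion, whereas the fifth gave 0.21 ± 0.14 (P = 0.151). FOS met the criterion in 3 of 6 fits without a slide, with P-values up to 0.017 (without slide 4). The fifth probe was also the dimmest, with means of -1.59 in HF and -1.80 in LF pigs, against -0.16 to 1.56 for the other 4. Whether its low level or its stretch of FOS goes with the small difference was not tested. Its sequence, which reads without a stop codon in 1 forward frame, is shown to identify the probe.
FOS probe at 0.21: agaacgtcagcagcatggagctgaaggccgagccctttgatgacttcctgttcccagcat

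CEBPD, a transcription factor of myeloid cells that glucocorticoids and inflammation induce, was lower in HF pigs. CEBPD ranged from 2.91 to 4.0 (median 3.31) in HF pigs and from 3.31 to 4.72 (median 3.64) in LF pigs. In this gene 6 HF pigs lay below every LF pig and 6 of 6 slides gave a negative difference, with an overall value of -0.42 ± 0.15 (FC = 0.747, P = 0.00936). CEBPD is measured by 1 retained probe, and with all non-control probes its value was -0.19. It missed the criterion under 4 of 13 alternatives. Its P-value exceeded 0.01 in 15 of the 24 fits that left out a single pig, the highest being 0.0198 without LF pig 4. On slide 2 alone the difference was -1.10, and without that slide it was -0.29 (P = 0.0249).

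The other glucocorticoid-responsive genes had mostly negative differences of smaller size. Of 10 measured genes, 8 were lower and 2 higher in HF pigs, with a median of -0.18 against 0.0054 over all genes. Their signs are not separate observations, since the genes moved together across pigs of a diet (median pairwise correlation 0.38). CEBPD alone met the criterion, and PER1, a clock gene that glucocorticoids induce, had a P-value under 0.05 (-0.26 ± 0.12, P = 0.0471). FKBP5, a chaperone of the glucocorticoid receptor, stood at -0.25 (P = 0.0923), ZBTB16 at -0.13 (P = 0.153). The mean of the list ranged from 1.35 to 2.08 (median 1.5) in HF pigs and from 1.54 to 2.16 (median 1.75) in LF pigs, and 7 of 12 HF pigs lay below every LF pig while the others overlapped with LF pigs. The difference of -0.16 in the list mean was carried by slides 2, 3 and 6, at -0.61, -0.29 and -0.26, while the other 3 slides gave 0.0020, 0.08 and 0.10, and without slide 2 it was -0.074. In high RFI pigs the median of these genes was -0.015, with 4 of 10 higher in HF pigs.

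Among genes of lipid use, CPT1A was the one at the criterion. CPT1A ranged from 0.09 to 1.05 (median 0.35) in HF pigs and from -0.15 to 0.67 (median 0.04) in LF pigs. All 12 HF pigs exceeded the LF median, while 2 exceeded every LF pig. The difference was 0.29 ± 0.10 (FC = 1.22, P = 0.00881), and it was positive on 6 of 6 slides, from 0.10 to 0.51. High RFI pigs gave a difference of 0.37 (P = 0.0128), and the difference between lines was -0.08 ± 0.18 (P = 0.668). The P-value of CPT1A in low RFI pigs lay close to the limit and stayed under 0.01 in 8 of 24 fits without a single pig and 2 of 6 without a slide.

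The 4 CPT1A probes gave 0.48, 0.41, 0.18 and 0.10, of which the probe at 0.48 met the criterion. These differences fell with the level of the probe, whose mean in HF pigs was 3.46, 0.80, -0.52 and -2.11 in the same order. A pair of them, chosen after their values were seen, is shown. Their diet differences in low RFI pigs were 0.41 ± 0.15 (P = 0.0129) and 0.10 ± 0.09 (P = 0.266), and whether these 2 differ was not tested. Each probe of the pair reads through in 1 forward frame. Capitals mark a stop codon at the 3′ end of that frame.
CPT1A probe at 0.41: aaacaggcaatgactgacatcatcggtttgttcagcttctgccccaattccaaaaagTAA
CPT1A probe at 0.10: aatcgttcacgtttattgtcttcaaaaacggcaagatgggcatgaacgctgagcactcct

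No other of the 28 measured genes of fatty acid oxidation had a P-value under 0.05. In this list 17 genes were higher and 11 lower in HF pigs, with a median of 0.015. DECR1, an auxiliary enzyme for unsaturated fatty acids, stood at 0.13 (P = 0.217) and turned to -0.053 with its brightest probe. CRAT, carnitine acetyltransferase, stood at -0.27 (P = 0.285) and ACSL1, which activates long-chain fatty acids, at -0.14 (P = 0.317). For fatty acid synthesis and lipid storage, 7 of 22 genes were higher and 15 lower in HF pigs, with a median of -0.04. AGPAT2, an enzyme of triglyceride and phospholipid synthesis, ranged from -1.17 to -0.04 (median -0.79) in HF pigs and from -0.92 to 0.37 (median -0.44) in LF pigs, a difference of -0.34 ± 0.13 (P = 0.0183) that was negative on 6 of 6 slides. PSAP, the precursor of the saposins that assist lysosomal sphingolipid breakdown, was lower by a like size (-0.23 ± 0.09, P = 0.0129), with its 7 probes between -0.41 and -0.03 and the brightest at -0.12. By quantitative PCR over both lines, the study found no significant diet difference for PSAP, whereas CPT1A and LCN2 were higher on HF. Of 25 genes of cholesterol synthesis, uptake and efflux, INSIG2, which holds back sterol regulatory proteins, had a P-value under 0.05 (-0.14 ± 0.06, P = 0.0412), but it turned to 0.0061 (P = 0.93) when all non-control probes entered.

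TXNIP, which restrains glucose uptake and thioredoxin, had lower levels in HF pigs. TXNIP ranged from 4.37 to 5.30 (median 4.88) in HF pigs and from 4.73 to 6.13 (median 5.10) in LF pigs. With 5 of 12 HF pigs below every LF pig, the groups overlapped, and the difference was -0.40 ± 0.14 (FC = 0.756, P = 0.00772). All 11 TXNIP probes gave differences between -0.47 and -0.35, so the gene value did not rest on a single oligonucleotide. It did rest in part on slides 2 and 3, at -0.88 and -0.78, and was -0.31 (P = 0.0185) without slide 2 and -0.33 (P = 0.0416) without slide 3. ARRDC4, an arrestin of the same family with a like role in glucose uptake, stood at -0.18 ± 0.08 (P = 0.0313). PIK3IP1, an inhibitor of PI3-kinase in the insulin pathway, was lower at the criterion (-0.22 ± 0.08, P = 0.00721), with a difference of -0.78 on slide 2 and of -0.11 (P = 0.108) without that slide.

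**Figure D2:**
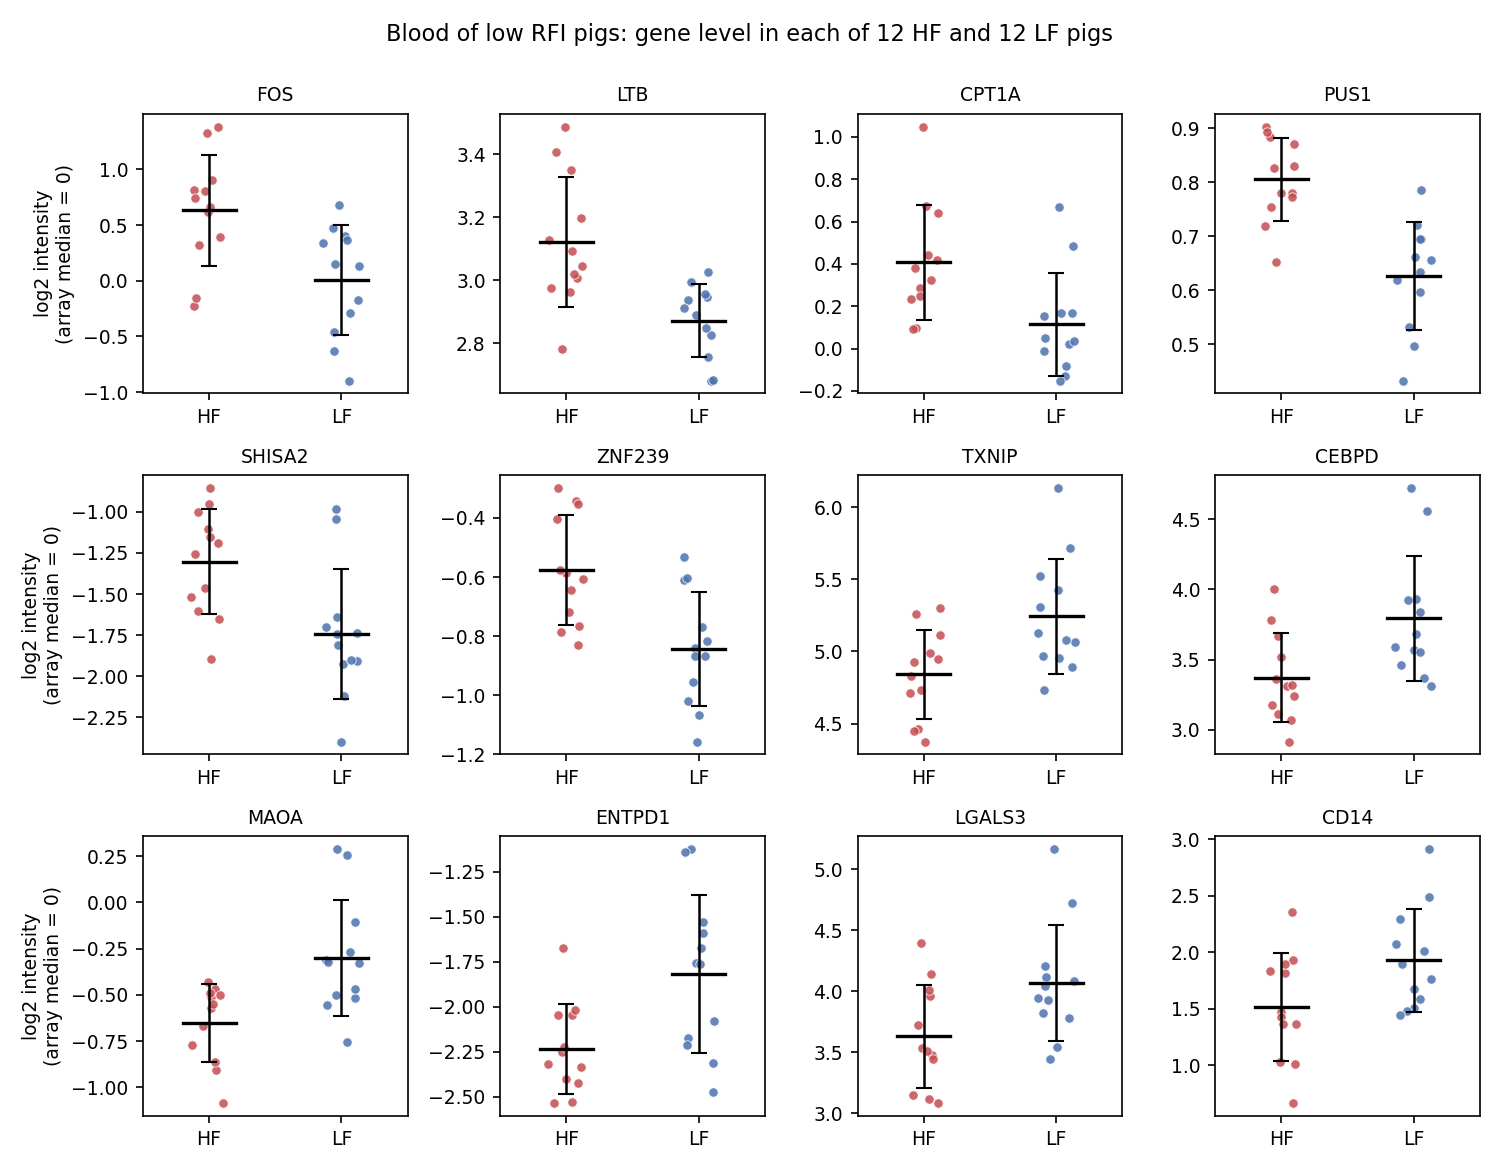
Log2 intensity (vertical axis, array median at 0) of 12 genes in each low RFI pig fed HF (red points) or LF (blue points), with group mean and SD in black. FOS, LTB, CPT1A, PUS1, SHISA2 and ZNF239 were higher and the other 6 genes lower in HF pigs, and for each gene the groups overlap.

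LTB, lymphotoxin beta, a membrane cytokine of lymphocytes, ranged from 2.78 to 3.49 (median 3.07) in HF pigs and from 2.68 to 3.03 (median 2.90) in LF pigs. Of the HF pigs, 7 lay above every LF pig. The difference of 0.25 ± 0.07 (FC = 1.19, P = 0.00166) was positive on 6 of 6 slides, and in high RFI pigs it was 0.01 (P = 0.884). Without slide 4 the P-value of LTB was 0.0195. STAP1, a signaling adaptor of B cells, stood at 0.25 ± 0.10 (P = 0.0159) and LEF1, a transcription factor of naive T cells, at 0.16 ± 0.07 (P = 0.034), neither at the criterion. The P-value of STAP1 was 0.06 without slide 2 and 0.104 without slide 4. GATA3, a transcription factor of T helper cells, stood the other way (-0.21, P = 0.08). Of the 16 measured B cell genes, 12 were higher in HF pigs (median 0.063), and of the 17 T cell genes 12 were higher (median 0.021), against 53% of all genes. Members of each list moved together across pigs of a diet (median pairwise correlations 0.54 and 0.30), so their signs are not separate observations. STAP1 and LEF1 were the members with P-values under 0.05 in these lists, and B cell genes with negative values included VPREB3, a B cell receptor assembly protein (-0.38, P = 0.0535).

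Genes of monocytes and macrophages were divided in low RFI pigs, with 11 of 22 higher, 11 lower and a median of -0.008. Of the 22 genes, 3 had P-values under 0.05, all with lower levels in HF pigs, against 0.616% of all genes. None met the criterion here, while FGL2 met it under 5 of 13 alternatives, LGALS3 under 2 and CD14 under 1. LGALS3, galectin-3, ranged from 3.08 to 4.39 (median 3.52) in HF pigs and from 3.45 to 5.17 (median 3.99) in LF pigs, a difference of -0.44 ± 0.17 (P = 0.0185) that its 8 probes gave at -0.46 to -0.41. CD14, the lipopolysaccharide co-receptor, differed by -0.41 ± 0.18 (P = 0.03) and FGL2, a fibrinogen-like protein of macrophages, by -0.31 ± 0.12 (P = 0.0159). Each of these 3 genes was lower in HF pigs on 6 of 6 slides, but their P-values moved past 0.05 without single slides. That of CD14 was 0.063 without slide 2, 0.107 without slide 3 and 0.0518 without slide 6. That of FGL2 was 0.0717 without slide 2, and that of LGALS3 was 0.0516 without slide 3. The LF pigs of slide 2 had the highest levels of all low RFI pigs in LGALS3 (5.17 and 4.73) and CD14 (2.91 and 2.49), and likewise in CEBPD (4.72 and 4.56) and TXNIP (6.13 and 5.72). Markers of the same cells that stood the other way included CD5L, an apoptosis inhibitor of tissue macrophages, at 0.56 (P = 0.206).

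At the criterion, ENTPD1 (CD39, an enzyme that degrades extracellular ATP) and MAOA (monoamine oxidase A) were lower in HF pigs. MAOA ranged from -1.08 to -0.43 (median -0.56) in HF pigs and from -0.76 to 0.29 (median -0.32) in LF pigs. All 12 HF pigs lay below the LF median, 6 of 6 slides were negative, and the difference was -0.35 ± 0.11 (FC = 0.783, P = 0.00274). Its 5 probes gave -0.46 to -0.20, and the gene met the criterion without any single pig or slide (P up to 0.0099). ENTPD1 was lower by a like size (-0.42 ± 0.14, FC = 0.75, P = 0.00636), but its 2 probes disagreed, at -0.68 and -0.15.

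PUS1, a pseudouridine synthase of RNA, had the lowest P-value of any gene (0.000786). PUS1 ranged from 0.65 to 0.90 (median 0.80) in HF pigs and from 0.43 to 0.79 (median 0.65) in LF pigs, a small difference of 0.18 ± 0.05 (FC = 1.13). It was positive on 6 of 6 slides and met the criterion without any single pig or slide, but it leaned on 1 oligonucleotide. The 2 spots that carried it gave 0.28 and 0.23, and the other 2 PUS1 probes gave 0.12 (P = 0.0493) and 0.08 (P = 0.204). ALKBH6, a member of the AlkB family of dioxygenases, stood at 0.21 ± 0.07 (P = 0.00767). NOC4L, a nucleolar protein of ribosome assembly, was at 0.20 ± 0.07 (P = 0.00745), although its 2 probes gave 0.46 and -0.06, and the probe at 0.46 had the lowest P-value of all retained probes (0.000188). RAE1, an mRNA export factor, was lower (-0.25 ± 0.09, P = 0.00979), with 7 probes between -0.53 and -0.06.

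The largest negative difference at the criterion was that of LRRN2, a leucine-rich repeat membrane protein, at -0.91 ± 0.32 (FC = 0.531, P = 0.00771). LRRN2 ranged from -2.18 to -0.17 (median -1.64) in HF pigs and from -1.87 to 0.66 (median -0.60) in LF pigs, and it was negative on 4 of 6 slides and stood at -0.62 (P = 0.0792) without slide 4. With all non-control probes LRRN2 stood at -0.55, and it missed the criterion under 4 of 13 alternatives. CHAT, choline acetyltransferase, ranged from -2.91 to -0.91 (median -1.81) in HF pigs and from -1.74 to -0.72 (median -1.38) in LF pigs, with 7 HF pigs below every LF pig and a difference of -0.58 ± 0.19 (P = 0.00446). NTPCR, a nucleotide triphosphatase, appears on the array under its present symbol and as C1ORF57, its former one, with 1 probe each. The 25 genes thus hold this gene under both symbols and stand for 24 distinct genes. Both probes were lower in HF pigs, at -0.45 ± 0.14 (P = 0.00377) and -0.62 ± 0.21 (P = 0.00655), and both were negative on 5 of 6 slides. C1ORF57 ranged from -0.80 to 1.40 (median 0.70) in HF pigs and from 0.36 to 1.51 (median 1.18) in LF pigs, with 3 HF pigs below every LF pig.

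The other genes at the criterion with higher levels in HF pigs were SHISA2, an endoplasmic reticulum protein (0.44, P = 0.00448), P311, now named NREP (0.27, P = 0.00722), ZNF239, a zinc finger protein (0.27, P = 0.00236), UBE2CBP (0.23, P = 0.00494), PIGG, an enzyme of the GPI anchor (0.22, P = 0.00308), and MSRB2, a mitochondrial methionine sulfoxide reductase (0.19, P = 0.00463). METTL14, a subunit of the m6A methyltransferase, was the 13th positive gene and was named after its values were seen. It stood at 0.14 (P = 0.00705), missed the criterion under 8 of 13 alternatives and was 0.083 by its brightest probe. Those with lower levels were FAM46A, a poly(A) polymerase now named TENT5A (-0.27, P = 0.00517), and SPATA1 (-0.20, P = 0.00652), which was -0.50 with background-corrected signals. No single FAM46A probe had a P-value under 0.05 (lowest 0.0647). For ZNF239 and PIGG all 12 HF pigs lay above the LF median. Of the 25 genes, 10 met the criterion in each of the 24 fits without a single pig, namely FOS, LTB, MAOA, PUS1, ZNF239, SHISA2, PIGG, MSRB2, NTPCR and CHAT. PUS1 and MAOA were the ones that also met it in all 6 fits without a slide.

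Antimicrobial granule genes of neutrophils varied widely among low RFI pigs of the same diet. The median within-diet SD of the 19 measured genes was 0.80, against 0.23 over all genes, and the median correlation between pairs of them across pigs of a diet was 0.67. The mean of the list ranged from 0.78 to 4.01 (median 2.45) in HF pigs and from 1.55 to 3.69 (median 2.12) in LF pigs. Of these genes, 14 were higher and 5 lower in HF pigs with a median of 0.20, and none had a P-value under 0.05. The list mean differed by 0.26, and by 0.17 without slide 3. PR39, a cathelicidin, ranged from -0.68 to 5.97 (median 3.72) in HF pigs and from 0.13 to 4.54 (median 2.53) in LF pigs, a difference of 0.83 ± 0.67 (P = 0.225). PMAP-23, another cathelicidin, differed by 0.74 ± 0.66 (P = 0.269), with a 95% interval from -0.61 to 2.10. LCN2, which binds bacterial siderophores, stood at 0.50 ± 0.30 (P = 0.111) and LYZ, lysozyme, at -0.30 ± 0.20 (P = 0.15).

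Genes of mature neutrophils stood the other way. Of 13 measured genes, 12 were lower and 1 higher in HF pigs, with a median of -0.11 and no P-value under 0.05. SERPINB1, an inhibitor of neutrophil proteases, stood at -0.23 (P = 0.121), MGAM, maltase-glucoamylase, at -0.22 (P = 0.15), and CXCR1, an interleukin-8 receptor, at -0.21 (P = 0.151). The list mean ranged from 1.38 to 2.32 (median 1.79) in HF pigs and from 1.67 to 2.55 (median 1.84) in LF pigs. Its difference of -0.12 was 0.25 on slide 1 and negative on the other 5 slides, and it was -0.19 without slide 1, -0.064 without slide 2 and -0.072 without slide 3. The 13 genes moved together across pigs of a diet (median pairwise correlation 0.63), so that their signs are not separate observations.

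For red cells, 5 of 19 measured genes were higher and 14 lower in HF pigs, with a median of -0.097 and no P-value under 0.05. Red cell genes too moved together across pigs of a diet (median pairwise correlation 0.55). The list mean gave no settled direction, with a difference of -0.021 that ran from -0.49 to 0.41 over slides and turned to 0.05 without slide 3 and 0.074 without slide 5. SLC4A1, the anion exchanger of the red cell membrane, ranged from 0.40 to 1.44 (median 1.0) in HF pigs and from 0.87 to 1.49 (median 1.18) in LF pigs, a difference of -0.22 ± 0.11 (P = 0.0569). Its 2 probes gave -0.36 (P = 0.156) and, for the brighter one, -0.08 (P = 0.614). EPOR, the erythropoietin receptor, and KLF1, the main transcription factor of the erythroid lineage, stood the other way, at 0.27 (P = 0.189) and 0.26 (P = 0.196). Genes of heme synthesis and iron import had a median of 0.024 with 9 of 14 higher, and platelet genes a median of 0.033 with 10 of 15 higher, a median that turned to -0.053 when the brightest probe stood for each gene. No gene of the heme and platelet lists had a P-value under 0.05.

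**Figure D3:**
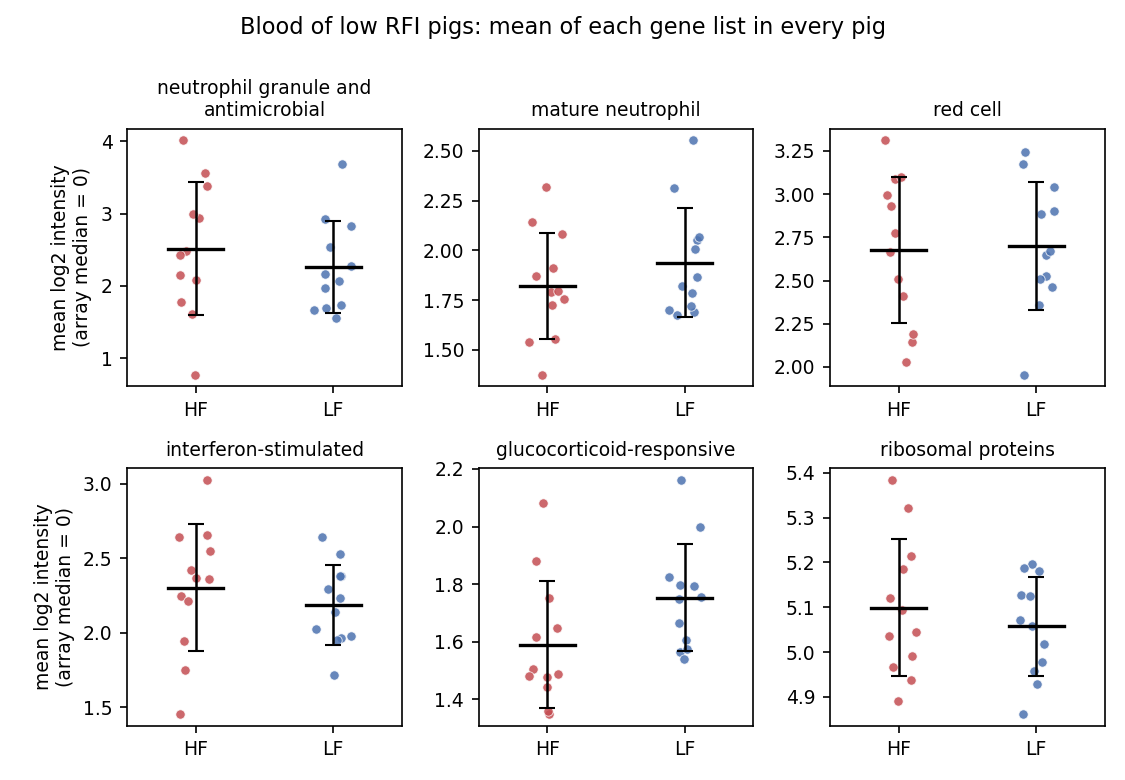
Mean log2 intensity (vertical axis, array median at 0) of 6 gene lists in each low RFI pig fed HF (red) or LF (blue), with group mean and SD in black. HF and LF pigs overlap in every panel, and neutrophil granule genes range from 0.78 to 4.01 among HF pigs.

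Interferon-stimulated genes were higher in HF pigs for 25 of 30 members, with a median of 0.087 and no P-value under 0.05. OASL stood at 0.25 (P = 0.107), IFI44L at 0.23 (P = 0.13), RSAD2, an antiviral radical SAM enzyme, at 0.39 (P = 0.196) and XAF1 at 0.30 (P = 0.205). These genes also moved together between pigs of the same diet, with a median pairwise correlation of 0.49. Their mean ranged from 1.46 to 3.03 in HF pigs and from 1.72 to 2.64 in LF pigs, so the HF pigs included both the highest and the lowest animal. The difference of 0.12 in the list mean rested on slide 1 (0.66), was 0.0071 without it, and was negative on 3 of 6 slides. For ribosomal proteins, 70 of 89 members were higher in HF pigs with a median of only 0.046, and for oxidative phosphorylation 53 of 76 with a median of 0.03. The ribosomal protein mean differed by 0.041, by 0.077 without slide 1, by 0.025 without slide 2 and by 0.024 without slide 4. Ribosomal protein genes too moved together (median pairwise correlation 0.56), as did those of oxidative phosphorylation (0.47). NK and cytotoxic cell genes (median -0.025), inflammatory mediators (-0.022), cell cycle genes (0.038) and the 5 measured genes of eosinophils, basophils and mast cells (3 higher, 2 lower) held no P-value under 0.05.

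**Figure D4:**
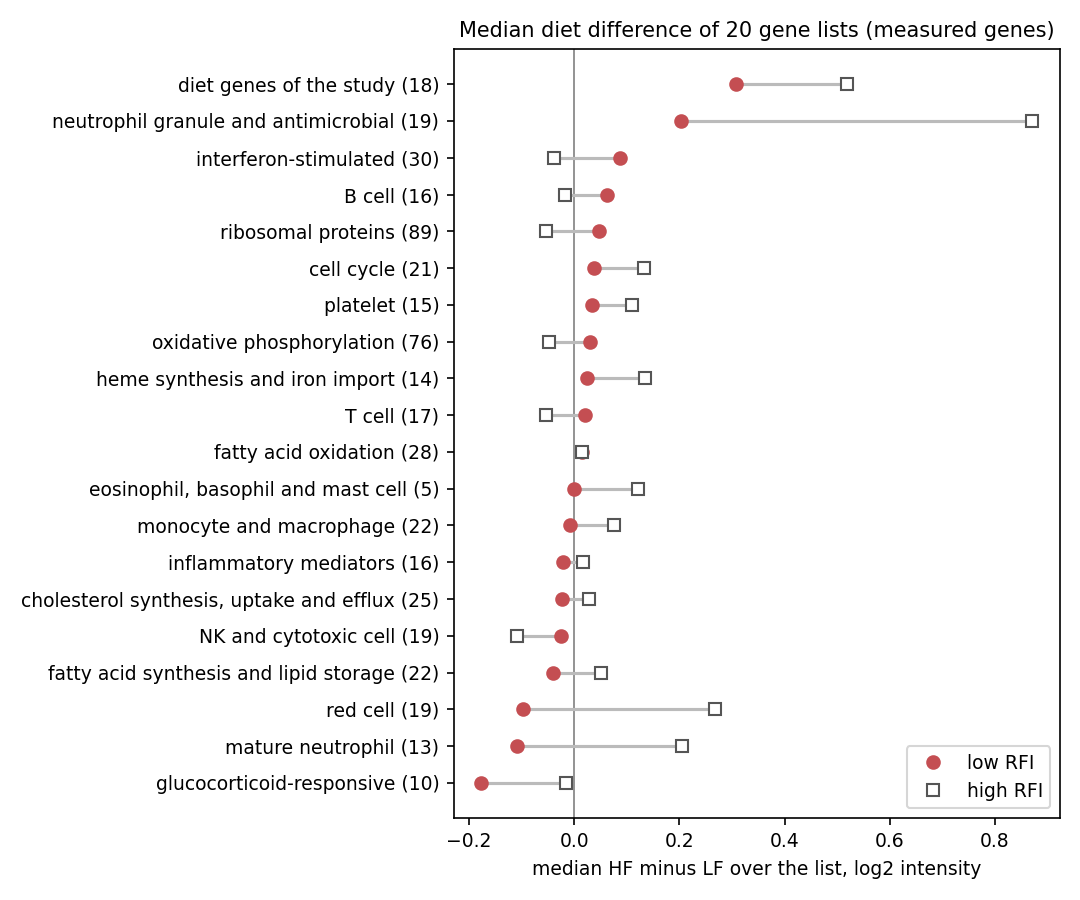
Median HF minus LF difference in log2 intensity (horizontal axis) of 20 gene lists, with the number of measured genes in brackets, in low RFI (red circles) and high RFI (open squares) pigs. In low RFI pigs the medians run from -0.18 for glucocorticoid-responsive genes to 0.31 for the diet genes of the study.

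The diet differences of low RFI pigs were set beside those of high RFI pigs, which came from other animals on the same slides. Across the 9900 genes the differences in the 2 lines had the same sign for 39.1% of genes, with a correlation of -0.18 across genes, which are not independent replicates. No gene met the criterion in both lines, with 25 in low RFI and 41 (0.414%) in high RFI pigs. Of the 25 low RFI genes, 16 had the same sign in high RFI pigs, and 2 of these, CPT1A and SHISA2 (0.26, P = 0.0431), also had P-values under 0.05 there. FAM46A had equal differences in both lines (-0.27 in each, P = 0.0554 in high RFI). These are averages over probes that ran from -0.35 to -0.21 in low RFI pigs and from -0.60 to 0.10 in high RFI pigs. For 23 of the 25 genes the high RFI difference was the smaller in size, a comparison that the choice of genes in low RFI pigs favors.

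**Figure D5:**
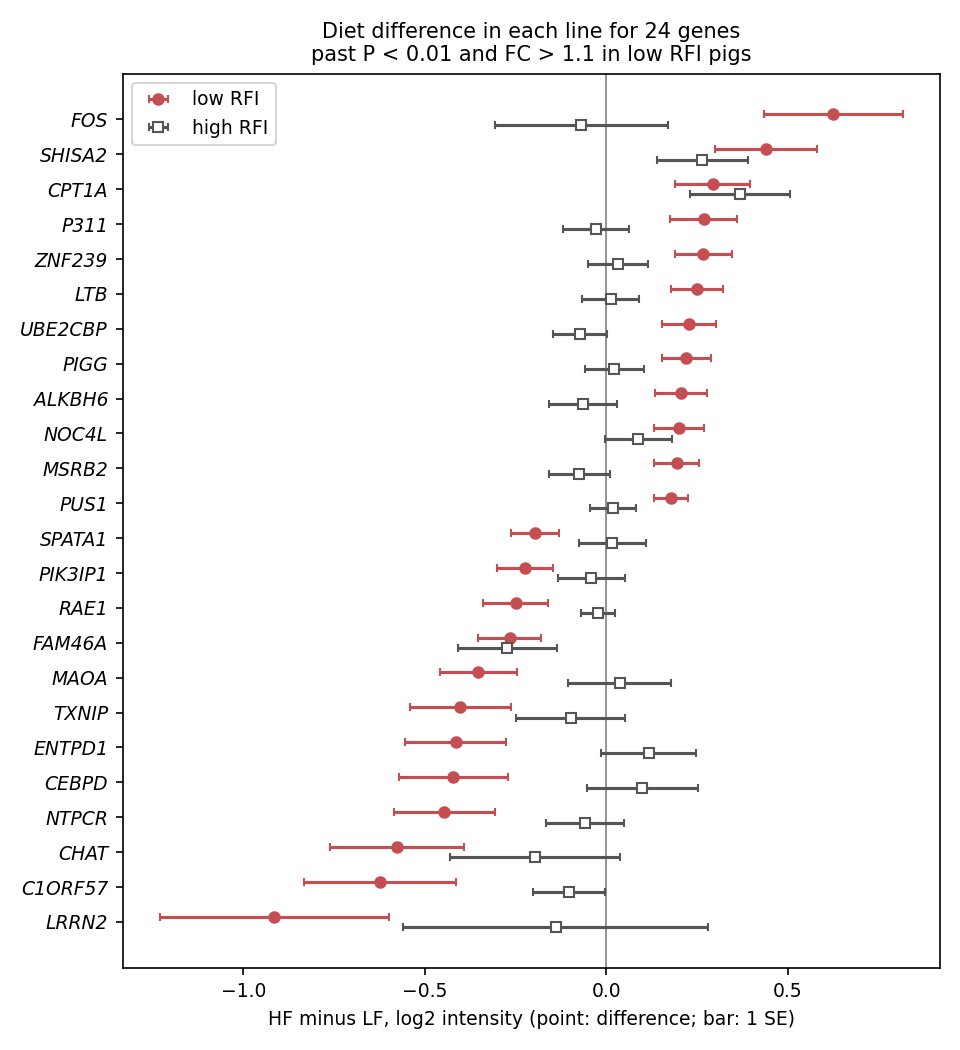
Diet difference (horizontal axis, HF minus LF in log2 intensity, bars of 1 SE) of the 24 named genes at the criterion in low RFI pigs, for low RFI (red circles) and high RFI (open squares) pigs. High RFI values lie nearer 0 than low RFI values for most genes, while for CPT1A, SHISA2 and FAM46A both values lie on the same side of 0, at 0.29 and 0.37, 0.44 and 0.26, and -0.27 and -0.27.

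Differences between the lines in their response to diet were tested directly. No gene passed an adjusted P-value of 0.05 for the interaction, 238 genes (2.4%) had P-values under 0.05, and 19 genes (0.192%) and 98 probes (0.264%) had P-values under 0.01. Of these genes, 9 had the higher diet difference in low RFI pigs. UBE2CBP (0.30 ± 0.10 above high RFI, P = 0.00541) and ENTPD1 (-0.53 ± 0.20, P = 0.00904) belonged to both this set and the 25 genes. SLC4A1 had the lowest interaction P-value (-0.48 ± 0.15, P = 0.00204), its diet difference being -0.22 in low RFI and 0.26 in high RFI pigs. That value rested on 1 of its 2 probes, whose interaction was -0.94 (P = 0.00945), while the brighter probe gave -0.03 (P = 0.877), with -0.08 in low RFI and -0.05 in high RFI pigs. STAP1 (0.25 against -0.24, P = 0.00325) and LGALS3 (-0.44 against 0.36, P = 0.00374) likewise had opposite signs, and SLC4A1, STAP1 and LGALS3 were known from earlier results of these data.

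Others with opposite signs were the ectodysplasin adaptor EDARADD (-0.35 against 0.21, P = 0.00372), AGPAT2 (-0.34 against 0.20, P = 0.00609), ARRDC4 (-0.18 against 0.16, P = 0.00596), MYLIP, which targets the LDL receptor for breakdown (0.14 against -0.30, P = 0.0048), and PSMD4, a proteasome subunit (-0.15 against 0.20, P = 0.00615). All 19 genes of this set differed in sign between lines, which the choice of large interactions favors.

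Medians of several lists had opposite signs in the 2 lines. Of the 13 mature neutrophil genes, 1 was higher on HF in low RFI pigs and 12 in high RFI pigs (medians -0.11 and 0.20), and 3 had interaction P-values under 0.05, against 2.4% of all genes. Of the 19 granule genes, 14 and 19 were higher (medians 0.20 and 0.87), and none had an interaction P-value under 0.05, so the larger values of high RFI pigs were not shown to differ from those of low RFI pigs. Among red cell genes 5 and 18 of 19 were higher (medians -0.097 and 0.27), with the low RFI list mean turning sign without slide 3 or slide 5, and SLC4A1 was the 1 member with an interaction P-value under 0.05. Among monocyte and macrophage genes, LGALS3, FGL2 (P = 0.0348) and CD14 (P = 0.0327) had such values. Interferon-stimulated genes (medians 0.087 and -0.038) and ribosomal proteins (0.046 and -0.054) stood the other way, with 0 and 3 such members.

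The study's own diet genes were chosen on these same pigs with both lines together, so their direction is not independent evidence. Of its 19 listed genes, 18 were measured here. RASL11B, which had the lowest P-value in the study's list, had no retained probe under that symbol. Of the 18, 15 were higher in HF low RFI pigs, with a median of 0.31 against 0.52 in high RFI pigs. At the criterion in low RFI pigs were CPT1A, SHISA2, NOC4L, NTPCR and RAE1. Members below the criterion included HP, haptoglobin, at 0.20 (P = 0.464), PGLYRP1, a peptidoglycan-binding granule protein, at 0.36 (P = 0.208), BGN, the proteoglycan biglycan, at 0.32 (P = 0.294), PLEK2 at 0.36 (P = 0.127) and TCN1, a cobalamin carrier of granules, at 0.37 (P = 0.201). In high RFI pigs HP, PGLYRP1 and TCN1 stood at 0.87, 0.91 and 0.91. Interaction P-values under 0.05 were found for RAE1 (0.0268), NTPCR (0.0365) and REXO2, a mitochondrial exoribonuclease (0.0366). REXO2 stood at 0.07 in low RFI and 0.44 in high RFI pigs, while RAE1 and NTPCR had the larger differences in low RFI pigs.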

How the data were processed

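Per the labels and the study's methods, total RNA from whole blood was labeled with Cy3 and hybridized to custom porcine 60K arrays, which were read by Feature Extraction. The authors deposited log2 values of 37113 retained probes in 1 series table and the spot intensity of each array, with the software's flags. In 47 of 48 columns the deposited log2 value equaled the log2 median intensity minus the array median within 1e-06. The column of high RFI HF replicate 1 held a repeated value after 23 entries and was rebuilt from its scanner intensities. No low RFI value was changed. The submitters' processing notes name R 3.0.2.

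Probes were named through RefSeq accessions, gene numbers and symbols (RefSeq tables of assembly Sscrofa11.1), and 17711 retained probes stayed unnamed. Probe positions were unmapped in the files, so no coordinates are given. Probes of a gene were averaged. HF and LF were compared with limma 3.58.1 in R 4.3.3 (lmFit and eBayes, diet as the only term, 24 low RFI arrays), with Benjamini-Hochberg adjustment over all probes or genes. The interaction was fitted on 48 arrays. The criterion of the methods was P under 0.01 and FC above 1.1. The scripts were tested on simulated data. Precision is limited by 12 pigs per group, and lies in the SEs given.

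Named genes were the 12 largest positive and 12 largest negative differences at the criterion, the same for interaction P-values under 0.01, up to 4 genes with the lowest P-values in each of 20 lists, the study's diet genes, STAP1, LGALS3 and SLC4A1. Members and lists were chosen with earlier results of these data known. Alternatives covered the test, normalization, probe filters, slide and replicate blocks, 1 bright probe per gene and fits without single pigs or slides.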

Additional observations from a re-analysis of the deposited data

How the results depend on the processing

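No alternative gave a probe or gene with an adjusted P-value under 0.05, either for diet in low RFI pigs or for the interaction. Counts at the criterion (79 probes, 25 genes) and at a P-value under 0.05 (493 probes) moved with the treatment of array-wide variation. With slide as a block they were 145 probes, 39 genes and 752 probes. With the array's median intensity over background as a covariate, an alternative chosen after seeing the data, they were 145 probes, 41 genes and 773 probes. Leaving out single pigs or slides, also chosen after seeing the data, gave 35 to 168 probes and 10 to 54 genes at the criterion. Gene counts were 54, 15, 11, 10 and 16 without slides 1, 2, 3, 4 and 6, with 168, 50, 46, 35 and 41 probes. Among single pigs the range was 15 to 35 genes, with 15 without LF pig 3 and 16 without LF pig 12. The cause was not tested.

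Replicate numbers were shared by the diets, and most same-numbered pigs, which also shared a slide, deviated together. Their correlations ran from -0.42 to 0.71 and were above 0.1 for 9 of 12 pairs, against a mean of -0.034 between other numbers. Of 12 HF pigs, 7 correlated best with their own number. The labels do not give the numbers as pairs, and the main fits did not use them. P-values of the main fits thus leave out this shared deviation. A replicate block gave 212 probes and 59 genes at the criterion, 1100 probes and 334 genes with P-values under 0.05, and 211 probes and 57 genes with interaction P-values under 0.01.

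Interaction P-values under 0.01 were found for 19 genes and 98 probes. Gene counts were 36 and 41 with background-corrected signals centered on the array median or the 75th percentile, 30 with normexp and quantile normalization, 33 with slide as a block, 31 with array signal as a covariate, and 8 (14 probes) with the faulty column as deposited. Direction turned for 5 named genes, none at the criterion: INSIG2 with all non-control probes (0.0061), DECR1 (-0.053), AURKB (-0.038) and CCNB2 (0.013) with the brightest probe, and MS4A2 without the 2 least correlated arrays (0.015), an alternative also chosen after seeing the data. The 24 named genes at the criterion kept their direction under each alternative, but missed the criterion under up to 7 of 13 (CPT1A 7, MSRB2 and RAE1 5 each, CEBPD, LRRN2, C1ORF57 and NOC4L 4 each), and METTL14 under 8. In turn, 11 named genes below the criterion met it under some alternatives, namely FGL2 under 5, PSAP under 3, LGALS3 and AGPAT2 under 2, and STAP1, EDARADD, ARRDC4, VPREB3, GATA3, CD14 and PER1 under 1. Of all 25 genes, 15 met it when all 48 arrays entered 1 fit and 16 without the 2 least correlated arrays, the lowest numbers over the 13 alternatives. List medians moved by less than the spread between pigs, and the sign turned for the platelet, monocyte and eosinophil lists, whose medians lay near 0. The median of all genes moved between -0.0012 and 0.012.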
